A study of Mus musculus with 6 samples.

Results

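The 10 genes described here encode the elastic fibre proteins and their relatives: elastin (*Eln*), the fibrillins (*Fbn1* and *Fbn2*), the fibulins (*Fbln1*, *Fbln2*, *Fbln5*, *Efemp1* and *Efemp2*) and the microfibril-associated proteins *Mfap4* and *Mfap5*. They were listed by name, as a gene family and with earlier results of these data known, and each matched 1 of the 56980 genes in the deposited count table. RNA came from cultured bone marrow cells that the study names BM MSCs, taken from female mice ovariectomized (OVX) at 8 weeks of age. All of these mice were first given antibiotics and then received fecal microbiota transplantation (FMT) for 8 weeks. The donors were also OVX mice, sedentary for the TranspCtrl group (n = 3 samples) and treadmill-exercised for the TranspExer group (n = 3 samples). No sham-operated, untransplanted or exercised animals were among these samples, and strain and any pooling of animals were not given in the sources used here. The cells were flushed marrow cultured for 7 days and washed, with no sorting step described. Markers of blood cells were detected in them beside those of stromal cells, as given below. The labels do not state that samples came from separate animals, so the p-values below measure the spread between these samples, which may be technical. The comparison asked how the transcripts of these cells differed with the exercise status of the fecal donor.

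Elastic fibres consist of an elastin core, cross-linked by lysyl oxidases, on a scaffold of fibrillin microfibrils. Fibulins are secreted glycoproteins that bind elastin, fibrillins, basement membranes and cross-linking enzymes, and fibulin-4 (*Efemp2*) and fibulin-5 (*Fbln5*) are needed for elastic fibre assembly in many tissues. Microfibrils also form without elastin, and they bind latent TGF-β complexes and BMPs in the matrix, in bone among other tissues.

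Within this family, the fibrillin genes, *Mfap5* and *Fbln2* were lower in the TranspExer samples, while the fibulins of elastin assembly showed small differences and elastin itself was barely detected. *Fbn2*, *Fbln2* and *Mfap5* fell by 3.79-, 3.66- and 5.46-fold, and *Fbn1*, the most abundant of the 10 genes in read counts, fell 1.86-fold. *Fbln1* was also lower, a call that was lost in 5 of 6 fits with a sample left out. *Eln*, *Fbln5*, *Efemp1* and *Efemp2* did not pass in edgeR with TMM scaling of all 6 samples, and *Efemp1* and *Efemp2* each passed in 2 of 7 other settings. Of the 9 genes that passed the low-count filter, 3 were lower at an adjusted p-value under 0.05 and a fold change of at least 2, against 5.28% of all 15190 tested genes. At the adjusted p-value alone, 5 of 9 were lower, against 15.5% of all genes. No member was higher by either rule in edgeR, where 3.5% and 16.6% of all genes were, and none was higher at an unadjusted p-value under 0.05 in edgeR, DESeq2 or limma voom. With 9 genes, 0 called higher is near what the 3.5% background gives. The median log2 fold change was -0.63 over the 9 genes and -0.02 over all tested genes.

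Total counts were 17647638 to 21319166 per sample, and 3 counts, the floor used here, equalled 0.139 to 0.174 CPM, the count of a gene relative to the library total (scaled by TMM factors of 0.967 to 1.08), a limit that covers counting error only. TranspCtrl replicate 1 stood apart from the others of its group, at Euclidean distances of 62.8 and 60.2 in log2 CPM from replicates 2 and 3, which were 37.0 from each other. TranspExer samples were 42.8 to 43.9 apart. Where leaving out that sample changed a call or a direction, both values are given for the members and the named genes of the lists.

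Promoter sequence is shown for *Fbln1* and *Fbln5*, the fibulins with printable windows whose log2 fold changes lay farthest apart with all 6 samples (-0.63 and 0.02), although both calls changed when samples were left out. Windows were taken from the RefSeq promoter table (GRCm38.p6) for 6 of the 10 genes. Of these, 3 (*Fbln1*, *Fbln5* and *Efemp2*) had more than 1 start site. No window was taken for the other 4, *Eln*, *Fbn2*, *Mfap4* and *Mfap5*. Not every entry of the table was used, so this does not show that RefSeq lacks a start for them. The windows of *Fbn1* and *Fbln2* lie inside annotated exons and are not printed. The printed windows are those of *Fbln1* and *Fbln5* that overlap no gene in GENCODE M21. Each holds the 250 bases before a RefSeq start, 5′ to 3′ on the strand of the gene, from chr15:85205699-85205948 (plus strand) for *Fbln1* and chr12:101819120-101819369 (minus strand) for *Fbln5*, whose RefSeq start lies upstream of the GENCODE gene. Capitals mark matches on either strand to any of 5 motifs, namely the core promoter element TATAAA, the NF-Y motif CCAAT, the SP1 motif GGGCGG, the AP-1 motif TGANTCA and the SMAD motif CAGAC.
Fbln1: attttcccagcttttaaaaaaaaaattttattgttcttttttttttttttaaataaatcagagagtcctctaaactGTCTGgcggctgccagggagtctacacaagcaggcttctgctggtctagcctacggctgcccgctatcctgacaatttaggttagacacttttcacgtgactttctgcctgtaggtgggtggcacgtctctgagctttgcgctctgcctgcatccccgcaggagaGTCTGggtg
Fbln5: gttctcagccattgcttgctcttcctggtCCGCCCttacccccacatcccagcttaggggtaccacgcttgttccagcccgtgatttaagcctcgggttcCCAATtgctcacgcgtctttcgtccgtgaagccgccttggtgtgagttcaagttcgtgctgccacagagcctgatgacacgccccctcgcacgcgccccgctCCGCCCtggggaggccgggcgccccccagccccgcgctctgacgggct
The *Fbln1* window held 2 CAGAC matches, which start 174 and 9 bases before the start site, and no match to the other motifs. The window of the other *Fbln1* start, 59 bases of which are annotated exon, held the same CAGAC matches (233 and 68 bases before that start) and 1 GGGCGG match (11 bases before it). The printed *Fbln5* window held 1 CCAAT match (150 bases before the start) and 2 GGGCGG matches (221 and 48 bases before it), and no CAGAC. The window of the other *Fbln5* start held 2 CAGAC matches (199 and 15 bases before it) and none of the other motifs. Among 32851 windows of all genes, 42.2% held CAGAC, 33.8% held CCAAT, 32.7% held GGGCGG, 12.4% held TATAAA and 6.75% held TGANTCA, so these are common sequences. The GC content was 46.4% in the printed *Fbln1* window and 62.4% at its other start, and 65.2% in the printed *Fbln5* window and 49.6% at its other start, against a median of 52.4% over all windows. Which gene had the higher GC content, and which held a GGGCGG or CAGAC match, thus depended on the start site, and the matches describe the letters only.

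Fibrillins are the large glycoproteins that polymerize into the microfibril. *Fbn1* (ENSMUSG00000027204, chromosome 2, 125300594 to 125507993 of GRCm38, minus strand) spans up to 66 exons, and its product is the main fibrillin of adult tissue. *Fbn1* had 872, 1037 and 957 CPM in TranspCtrl replicates 1, 2 and 3, and 487, 498 and 558 CPM in TranspExer replicates 1, 2 and 3. Every TranspExer sample was below every TranspCtrl sample. Group means were 956 ± 82.5 CPM in TranspCtrl and 514 ± 38.4 CPM in TranspExer (SD, n = 3 each), so that *Fbn1* changed by -0.89 on the log2 scale (SE, the standard error, 0.10; adjusted p = 0.000596 from edgeR). It therefore passed the adjusted p-value and missed the fold threshold. The antisense gene *Gm9913* overlaps *Fbn1* with a mean of 33.4 counts.

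*Fbn2* (ENSMUSG00000024598, chromosome 18, 58008623 to 58210487, minus strand) encodes fibrillin-2, best known from developing tissue and, like fibrillin-1, a regulator of BMP and TGF-β availability. It had 32.8, 44.3 and 43.4 CPM in TranspCtrl samples and 10.5, 10.4 and 10.9 CPM in TranspExer samples. The groups were well separated, and the TranspExer samples differed from each other by less than 1 CPM. The log2 fold change was -1.92 (SE 0.13, adjusted p = 7.57e-05 from edgeR). As a share of both fibrillins, measured per length, *Fbn2* was 3.33%, 3.77% and 4.00% in TranspCtrl samples and 1.94%, 1.88% and 1.77% in TranspExer samples. Its share of fibrillin transcripts was thus lower in every TranspExer sample, a description with no test.

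*Mfap5* (ENSMUSG00000030116, chromosome 6, 122505845 to 122529290, plus strand) encodes MAGP-2, a small protein bound to fibrillin microfibrils. It was a low-level gene, with 99, 81 and 81 counts in TranspCtrl samples and 16, 7 and 21 counts in TranspExer samples. These counts equalled 4.83, 4.16 and 3.77 CPM against 0.837, 0.407 and 1.04 CPM. All TranspExer values were below all TranspCtrl values, and the log2 fold change of -2.45 (SE 0.30, adjusted p = 0.000861 from edgeR) was the largest among the members in size. Its relative *Mfap2* (MAGP-1), a gene of the assembly list below, had 5.27, 4.98 and 5.16 CPM in TranspCtrl and 2.41, 2.62 and 1.99 CPM in TranspExer. *Mfap2* fell as well, with a log2 fold change of -1.14 (SE 0.17, adjusted p = 0.00201 from edgeR).

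*Mfap4* (ENSMUSG00000042436, chromosome 11, 61485431 to 61488900, plus strand), whose product binds elastin and collagen, had 3 counts in TranspCtrl replicate 1 and 0 counts in each of the other 5 samples. A difference was not detectable at this depth, and the gene did not enter the test. It is overlapped by *Mapk7* on the opposite strand, with a mean of 787 counts.

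*Eln* (ENSMUSG00000029675, chromosome 5, 134702593 to 134747323, minus strand), the gene of tropoelastin, had 11, 19 and 19 counts in TranspCtrl samples and 32, 18 and 22 counts in TranspExer samples. In CPM these were 0.537, 0.975 and 0.883 against 1.67, 1.05 and 1.09. The TranspExer values were all above the TranspCtrl values, as they were for 27.2% of all tested genes, but neighbouring samples of the groups differed by less than 0.1 CPM. The log2 fold change was 0.67 (SE 0.33, adjusted p = 0.156 from edgeR), and the difference did not pass in any of 6 fits with a sample left out or 7 other settings. The 5 genes with the most similar pattern over the 6 samples were *Lars2*, *Pcdh10*, *Epop*, *Mmp17* and *AY036118*, with root mean squared differences in centred log2 CPM of 0.107 to 0.123. As many as 1946 genes lay within 0.3 of *Eln* by this measure, so the nearest genes are not set apart.

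**Figure D1:**
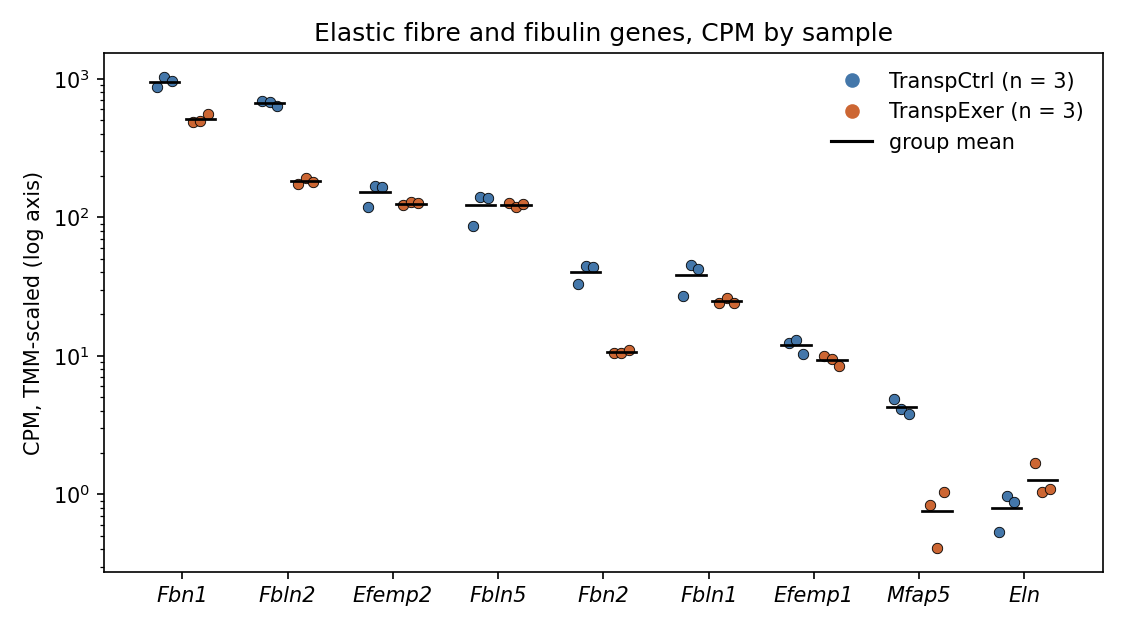
CPM of each sample on a log axis for the 9 tested genes, ordered by their TranspCtrl mean, with 1 point per sample and a bar at the group mean (n = 3); *Mfap4*, at 0 in 5 samples, is not drawn. *Fbn1*, *Fbln2*, *Fbn2* and *Mfap5* show a gap between groups, whereas *Efemp2* and *Fbln5* overlap because TranspCtrl replicate 1 lies low.

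Among the fibulins, *Fbln2* (ENSMUSG00000064080, chromosome 6, 91212455 to 91272540, plus strand) showed the largest difference. Fibulin-2 binds fibrillin-1, fibronectin and versican and is found in vessel walls, basement membranes and heart valves. *Fbln2* had 690, 676 and 632 CPM in TranspCtrl samples and 174, 193 and 179 CPM in TranspExer samples. The spread within each group was small beside the gap between them. Group means were 666 ± 30.1 and 182 ± 9.97 CPM (SD, n = 3 each), with a log2 fold change of -1.87 (SE 0.09, adjusted p = 2.28e-05 from edgeR). This was the smallest adjusted p-value of the members, and 1.99% of all tested genes had a lower log2 fold change. *Fbln2* was highest in TranspCtrl replicate 1, the sample in which *Fbln1*, *Fbln5* and *Efemp2* were lowest among the TranspCtrl samples.

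*Fbln1* (ENSMUSG00000006369, chromosome 15, 85205949 to 85286535, plus strand) encodes fibulin-1, a protein of basement membranes and elastic fibres that also binds fibronectin. It had 27.0, 45.6 and 42.2 CPM in TranspCtrl samples and 24.2, 26.3 and 23.8 CPM in TranspExer samples. The groups did not overlap, but TranspCtrl replicate 1 was within 1 CPM of the highest TranspExer sample. The log2 fold change was -0.63 (SE 0.18, adjusted p = 0.0326 from edgeR). This call was lost in the 5 of 6 fits that left out a sample other than TranspCtrl replicate 1, with log2 fold changes of -0.68 to -0.48 and adjusted p-values up to 0.103. Without TranspCtrl replicate 1 the log2 fold change was -0.83 (adjusted p = 1.77e-06 from edgeR).

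The fibulins of elastin assembly differed less. *Fbln5* (ENSMUSG00000021186, chromosome 12, 101746565 to 101819055, minus strand) encodes fibulin-5, which links tropoelastin to microfibrils and to integrins. It had 87.0, 141 and 138 CPM in TranspCtrl samples and 126, 120 and 124 CPM in TranspExer samples. The TranspExer values lay inside the TranspCtrl range, and the log2 fold change was 0.02 (SE 0.17, adjusted p = 0.943 from edgeR). Without TranspCtrl replicate 1 it was -0.18 (adjusted p = 0.0175 from edgeR). The sign of this value near 0 also turned without TranspExer replicate 1 (-0.0022) and in 4 of 7 other settings (-0.16 to -0.0091), none of which passed.

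*Efemp2* (ENSMUSG00000024909, chromosome 19, 5473954 to 5482517, plus strand) encodes fibulin-4, which brings lysyl oxidase to tropoelastin. It had 119, 169 and 166 CPM in TranspCtrl samples and 122, 129 and 126 CPM in TranspExer samples. TranspCtrl replicate 1 fell below all TranspExer samples and the other TranspCtrl samples lay above them. The log2 fold change was -0.27 (SE 0.13, adjusted p = 0.154 from edgeR), and -0.42 without TranspCtrl replicate 1 (adjusted p = 3.21e-05 from edgeR). *Mus81* overlaps it on the opposite strand, with a mean of 291 counts.

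*Efemp1* (ENSMUSG00000020467, chromosome 11, 28853204 to 28926743, plus strand) encodes fibulin-3, known from basement membranes and the retina. It had 12.4, 13.0 and 10.3 CPM in TranspCtrl samples and 9.89, 9.42 and 8.45 CPM in TranspExer samples. The groups did not overlap, but the gap between them was under 1 CPM. The log2 fold change of -0.36 (SE 0.13) had an adjusted p-value of 0.0648 from edgeR and did not pass. It passed with scaling by library size only (adjusted p = 0.0389), with upper-quartile scaling (adjusted p = 0.0408), and without TranspCtrl replicate 3 (adjusted p = 0.0446). Counted over all members, 6 of 9 had every TranspExer sample below every TranspCtrl sample, against 25.1% of all tested genes.

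Levels of different genes can be compared only per length, here as CPM per kb of annotated exon (union of all exons in GENCODE M21). In TranspCtrl samples *Fbln2* led with 104 ± 4.74 CPM per kb (SD, n = 3), followed by *Fbn1* with 78.8 ± 6.80, *Efemp2* with 40.0 ± 7.45 and *Fbln5* with 17.6 ± 4.37. *Fbln1* and *Efemp1* came next with 8.76 ± 2.27 and 5.84 ± 0.684 CPM per kb, and their ranges overlapped. *Fbn2* had 3.04 ± 0.485, *Mfap5* 1.18 ± 0.151 and *Eln* 0.0986 ± 0.0285 CPM per kb, so *Eln* and *Mfap4*, with overlapping ranges, ended the order.

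In TranspExer samples *Fbn1* led with 42.4 ± 3.16 CPM per kb (SD, n = 3), then *Efemp2* with 33.1 ± 0.876, *Fbln2* with 28.5 ± 1.56 and *Fbln5* with 17.8 ± 0.496. *Fbln2* thus moved from the first place to the third. The lower part of the order was the same by this length, with *Mfap5* (0.212 ± 0.0904) and *Eln* (0.157 ± 0.0432) now overlapping. The order in TranspExer depended on the length used. *Efemp2* led there with the length of the longest transcript, with a range that overlapped that of *Fbn1*, and *Eln* stood above *Mfap5*, again with overlapping ranges. With the length column of the file, an alternative chosen after seeing the data, *Efemp2* also led and *Fbln5* stood above *Fbln2*. *Fbln2* led in TranspCtrl with all 3 lengths. With the longest transcript, the mean level of *Eln* was 0.207 CPM per kb in TranspCtrl and 0.330 in TranspExer, and with the length column that of *Fbln5* was 51.4 and 52.0 CPM per kb, that of *Efemp2* 85.0 and 70.4, and that of *Mfap5* 2.82 and 0.506.

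Summed over the 10 genes, the level was 240, 278 and 261 CPM per kb in TranspCtrl replicates 1, 2 and 3 and 129, 134 and 136 CPM per kb in TranspExer replicates 1, 2 and 3. *Fbn1* kept a like share of this sum, 29.9% to 30.8% in TranspCtrl and 30.6% to 33.8% in TranspExer. *Fbln2* made up 38.0% to 45.0% in TranspCtrl and 20.6% to 22.6% in TranspExer. Among the 5 fibulins alone, *Fbln2* held 65.8%, 56.4% and 55.8% in TranspCtrl samples and 31.0%, 32.9% and 31.5% in TranspExer samples. The share of *Efemp2* was 19.1% to 24.7% against 36.5% to 37.4%, and that of *Fbln5* was 7.66% to 11.2% against 18.8% to 20.7%. These shares are descriptions with no test, and a lower share of one gene raises those of the others.

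**Figure D2:**
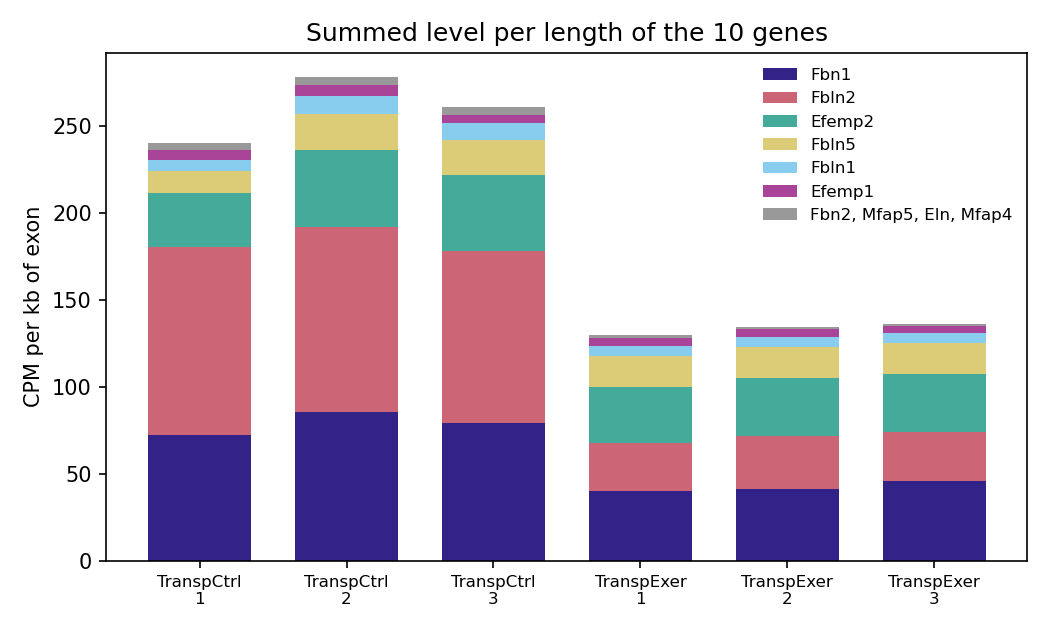
Stacked bars of CPM per kb of exon for the 10 genes in each sample, starting at 0, with *Fbn2*, *Mfap5*, *Eln* and *Mfap4* summed in the top segment. The bars reach 240 to 278 CPM per kb in TranspCtrl and 129 to 136 in TranspExer, and the *Fbln2* segment shrinks most.

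Across the fits with each of the 6 samples left out, *Fbn1*, *Fbn2*, *Fbln2* and *Mfap5* kept their direction and their call at the adjusted p-value. The log2 fold change ranged from -0.97 to -0.83 for *Fbn1*, from -2.05 to -1.84 for *Fbn2*, from -1.93 to -1.85 for *Fbln2* and from -2.76 to -2.18 for *Mfap5*. Without TranspCtrl replicate 1, 7 of 9 members were lower at an adjusted p-value under 0.05, against 19.6% of all genes in that fit, and 3 of 9 still passed both thresholds. Their median log2 fold change was then -0.83. The count at the adjusted p-value was 5 without TranspCtrl replicate 3 and 4 without any 1 of the other 4 samples.

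**Figure D3:**
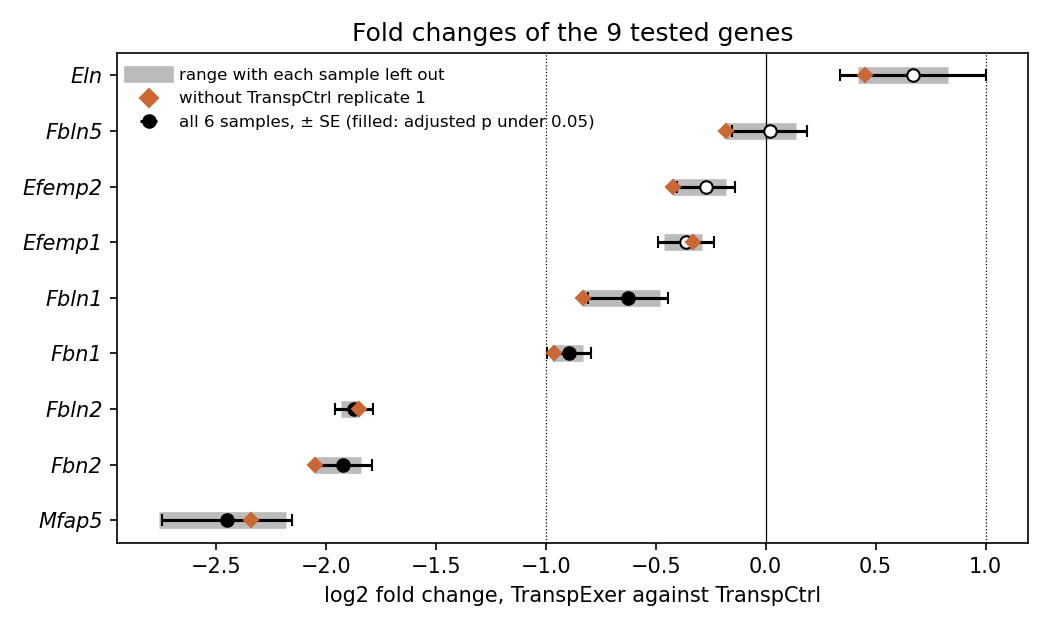
Log2 fold change of each of the 9 tested genes with all 6 samples (circles, ± SE), the range when each sample was left out (grey) and the value without TranspCtrl replicate 1 (diamonds); dotted lines mark a fold change of 2. The intervals of *Mfap5*, *Fbn2* and *Fbln2* lie beyond -1, and *Fbln5* crosses 0 when TranspCtrl replicate 1 is left out.

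The genes that build, cross-link or sense elastic fibres were examined with a list of 33 genes, of which 28 passed the low-count filter. Past both thresholds, 3 were lower and 2 higher, and at the adjusted p-value alone 8 were lower, 4 higher and 16 neither, with a median log2 fold change of -0.12. Over all tested genes the shares were 5.28% lower and 3.5% higher past both thresholds and 15.5% and 16.6% at the adjusted p-value, so the higher calls were near the background. *Vcan*, the gene of the proteoglycan versican that binds fibulins and fibrillin, had 228, 229 and 207 CPM in TranspCtrl samples and 77.7, 89.0 and 89.7 CPM in TranspExer samples. Its log2 fold change was -1.37 (SE 0.09, adjusted p = 6.56e-05 from edgeR). *Adamts6*, a secreted metalloproteinase related to enzymes that act on fibrillin, fell by 1.06 on the log2 scale (SE 0.13, adjusted p = 0.000842), and *Mfap2* was the other gene called lower. Those called higher were the multimerin genes, relatives of the emilins: *Mmrn1* with a log2 fold change of 1.16 and *Mmrn2*, a protein of endothelial matrix, with one of 1.10 (adjusted p = 0.000218 and 0.00134). With a fold change of 2 tested inside the model, 1 of these genes was called lower and 0 higher, against 1.8% and 0.908% of all tested genes. Without TranspCtrl replicate 1, 14 of 28 were lower and 5 higher at the adjusted p-value, against 19.6% and 22.1% of all genes in that fit, with a median log2 fold change of -0.23, while 3 and 2 still passed both thresholds.

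The lysyl oxidases, which cross-link elastin and collagen, did not move together. *Lox* had 2246, 3567 and 3329 CPM in TranspCtrl samples and 1919, 2000 and 2052 CPM in TranspExer samples, without overlap. Its log2 fold change was -0.61 (SE 0.17, adjusted p = 0.0252 from edgeR). *Loxl1*, the relative most tied to elastin, had 210, 347 and 350 CPM against 344, 326 and 329 CPM, with overlap and a log2 fold change of 0.14 (adjusted p = 0.573). TranspCtrl replicate 1 alone made this overlap, and without it *Loxl1* stood at -0.06 (adjusted p = 0.322) and *Lox* at -0.79 (adjusted p = 4.43e-08 from edgeR). *Loxl2* and *Loxl4* were lower, at -0.74 and -0.90 on the log2 scale (adjusted p = 0.000651 and 0.000722), and *Loxl3* rose by 0.26 (adjusted p = 0.0223). *Loxl2*, *Loxl3* and *Loxl4*, like *Ltbp1*, *Ltbp3*, *Hmcn1*, *Hmcn2*, *Neu1*, *Glb1*, *Ctsa*, *Fn1*, *Mmp12*, *Ctsl*, *Ctss* and the marker genes below, are named to complete a family or a count, or as examples, after their values were seen.

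Among other known partners, the latent TGF-β binding proteins are relatives of the fibrillins found on microfibrils, and most of them tether latent TGF-β there, which LTBP-2 does not. None passed, at log2 differences of -0.07 for *Ltbp1* (adjusted p = 0.760), -0.16 for *Ltbp2* (adjusted p = 0.393), 0.37 for *Ltbp3* (adjusted p = 0.118) and 0.27 for *Ltbp4* (adjusted p = 0.462), the latter at 1.56 to 3.33 CPM. Without TranspCtrl replicate 1 the first 3 passed, at -0.26, -0.29 and 0.19 (adjusted p = 0.00332, 0.0111 and 0.0252 from edgeR). *Emilin1*, a protein of the elastin and microfibril interface, stood at -0.18 on the log2 scale (adjusted p = 0.178), and passed without that sample at -0.27 (adjusted p = 0.000926). Fibulins outside the 10 genes were barely detected. *Fbln7* had 2 to 9 counts per sample and was below the filter, as was the hemicentin gene *Hmcn2* with 0 to 6 counts, and *Hmcn1* had 6 to 30 counts and a log2 fold change of 0.85 (adjusted p = 0.250). Of the genes of the elastin receptor complex, *Neu1* rose by 0.56 (adjusted p = 0.00142), which with *Mmrn1*, *Mmrn2* and *Loxl3* makes the 4 higher genes. *Glb1* lay at -0.21 (adjusted p = 0.0583), which passed without TranspCtrl replicate 1 (-0.20, adjusted p = 0.0198), and *Ctsa* at 0.0053 (adjusted p = 0.974). *Fn1*, whose fibronectin fibrils guide fibrillin deposition, fell by 0.70 on the log2 scale (adjusted p = 0.00198 from edgeR).

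Enzymes that degrade elastin moved in both directions. Of 11 listed, 10 were tested, 3 passed both thresholds as lower and 3 as higher, and at the adjusted p-value alone 3 were lower and 6 higher (median log2 fold change 0.63), against 5.28% and 3.5% of all tested genes past both thresholds and 15.5% and 16.6% at the adjusted p-value. With a fold change of 2 tested inside the model, 2 were lower and 3 higher, against 1.8% and 0.908% of all genes. The lower genes were *Ctsk*, the cathepsin of osteoclasts, and the gelatinases *Mmp9* and *Mmp2*. *Ctsk* had 190, 134 and 133 CPM in TranspCtrl samples and 28.4, 26.2 and 25.4 CPM in TranspExer samples, a log2 fold change of -2.51 (SE 0.15, adjusted p = 4.96e-05 from edgeR), and *Mmp2* had one of -1.08 (adjusted p = 0.000105). The genes higher past both thresholds were the serine proteases of primary granules, *Elane* (neutrophil elastase), *Ctsg* and *Prtn3*, at 2.16, 1.88 and 1.79 on the log2 scale (adjusted p = 0.000105, 4.54e-05 and 2.35e-05). *Elane* had 73.9, 99.1 and 120 CPM in TranspCtrl samples and 427, 435 and 442 CPM in TranspExer samples, with a wide gap between the groups. The other 3 genes higher at the adjusted p-value were more abundant, namely the macrophage elastase gene *Mmp12* (log2 fold change 0.85, adjusted p = 0.00179, mean of 1064 CPM in TranspExer) and the lysosomal cathepsins *Ctsl* (0.83, adjusted p = 0.00274, 1581 CPM) and *Ctss* (0.43, adjusted p = 0.0371, 2421 CPM).

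**Figure D4:**
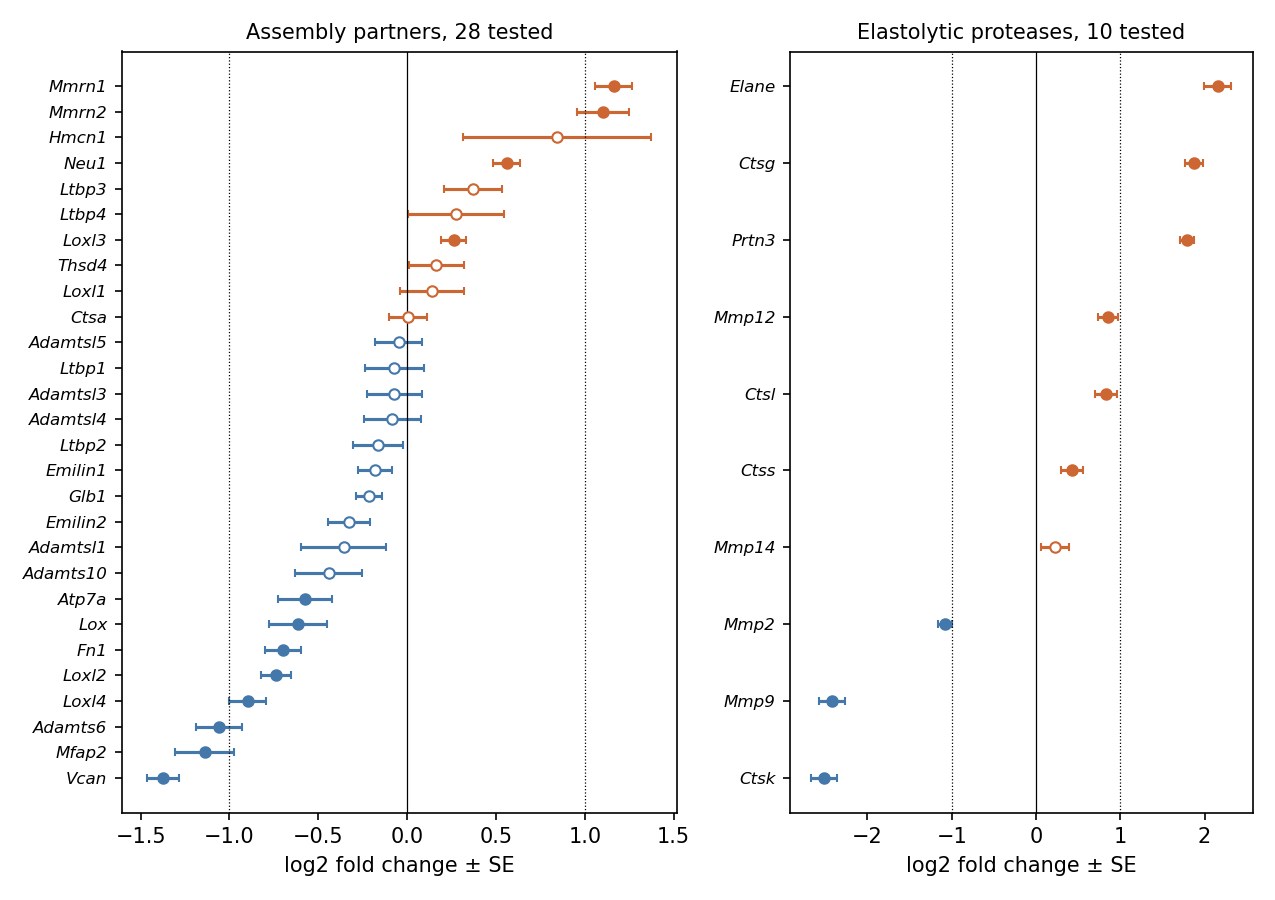
Log2 fold changes ± SE of the 28 tested assembly partners (left) and the 10 tested elastolytic proteases (right), sorted, with filled symbols at an adjusted p-value under 0.05 and dotted lines at a fold change of 2. *Vcan*, *Mfap2* and *Adamts6* lie beyond -1 on the left, and *Ctsk*, *Mmp9* and *Elane* lie farthest from 0 on the right.

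Markers of several cell types moved along with these genes, and in bulk RNA fewer cells of a type cannot be told apart from less RNA per cell. Blood cell markers were abundant in both groups. *Csf1r* had means of 882 and 928 CPM and *Ptprc* of 281 and 294 CPM in TranspCtrl and TranspExer. Among stromal markers, *Pdgfra* had means of 112 and 55.8 CPM and *Col1a1* of 8042 and 7222 CPM. Which of these cells made the transcripts of the 10 genes was not tested. Of 12 markers of stromal cells, all of them tested, 8 were lower, 2 higher and 2 neither at the adjusted p-value, with a median log2 fold change of -0.54. For this and the lists that follow, the shares over all tested genes were 15.5% lower and 16.6% higher, and 19.6% and 22.1% without TranspCtrl replicate 1. The summed level of the stromal markers was 15080, 23190 and 22280 CPM in TranspCtrl and 14230, 14870 and 15520 CPM in TranspExer, so that TranspCtrl replicate 1 alone overlapped with TranspExer. In TranspCtrl replicates 1, 2 and 3, *Col1a1* had 4563, 9951 and 9613 CPM and *Col1a2* 5132, 7350 and 7029 CPM. Not all markers were low in replicate 1, as *Pdgfra* had 108, 116 and 112 CPM. Without TranspCtrl replicate 1, 10 stromal markers were lower and 2 higher, with a median of -0.61. *Col3a1* and *Nt5e* were lower, at -1.28 and -1.08 on the log2 scale, whereas *Pdgfrb* and *Vcam1* rose by 0.39 and 0.65. Of 3 tested osteoblast markers of 5, all were lower, with a summed level of 139 to 171 CPM against 62.9 to 71.4, and the defining gene *Bglap* never exceeded 1 count per sample. The other untested gene of that list, *Dmp1*, lay higher in TranspExer without overlap, with 6, 2 and 7 counts against 10, 16 and 13, and entered the test without TranspCtrl replicate 1, at a log2 fold change of 1.64 (adjusted p = 0.0410 from edgeR).

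Set against those shares, a count of 1 in the lists of 5 to 7 genes below is near the background. The 7 markers of pericytes and smooth muscle split, with 3 lower (4 without TranspCtrl replicate 1), 3 higher and 1 neither, and a summed level of 2444 to 2895 CPM against 1649 to 1858. *Tagln* fell by 0.98, while *Cspg4* and *Rgs5* rose by 2.82 and 1.90 on the log2 scale. Of 5 tested markers of adventitial fibroblasts, cells known to express *Mfap5* and *Fbn1*, 2 were lower, 1 higher and 2 neither, the summed level was 41.5 to 42.9 CPM against 35.7 to 41.7, and *Clec3b* had at most 2 counts. All 6 endothelial markers were higher, at 176 to 215 CPM against 548 to 600, and all 5 B and plasma cell markers were lower, at 1460 to 1861 CPM against 323 to 355. Of 7 macrophage markers, 1 was higher (2 without TranspCtrl replicate 1), 2 lower and 4 neither, at 12450, 8205 and 8444 CPM against 6300 to 6749, with the highest value in TranspCtrl replicate 1. *Lyz2*, with means of 6412 and 2910 CPM, set the fall in this sum, while *Cd68* rose and *Mrc1* fell by 0.33 on the log2 scale. Of 6 neutrophil and myeloid progenitor markers, which share *Elane* with the protease list, 2 were higher, 1 lower and 3 neither, at 1358 to 2277 CPM against 2869 to 3126, and 4 were higher and 0 lower without TranspCtrl replicate 1. The rise in this sum was set by *Mpo* (means of 216 and 1197 CPM) and *Elane* (97.5 and 435 CPM). With all 6 samples, the means of *S100a8* (392 and 350 CPM) and *S100a9* (939 and 897 CPM) were not higher in TranspExer. The part of these shifts in the results for *Fbn1*, *Fbn2*, *Fbln2* and *Mfap5*, and for the proteases, was not tested.

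**Figure D5:**
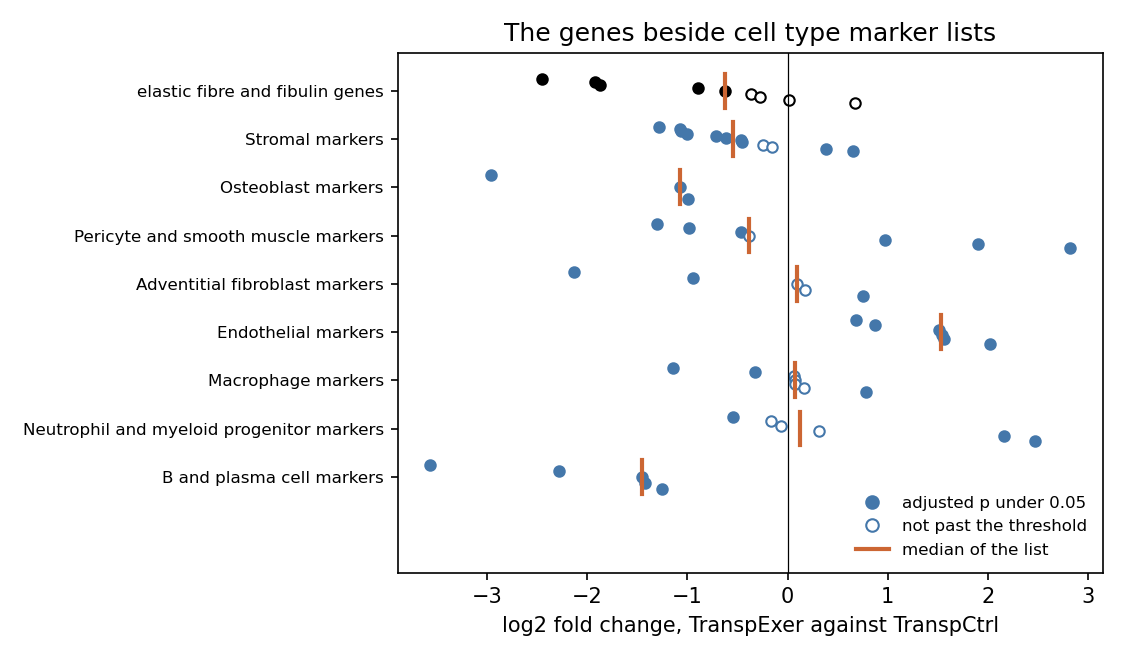
Log2 fold changes of the 9 tested elastic fibre and fibulin genes (black) and of tested cell type markers (blue), 1 point per gene, filled at an adjusted p-value under 0.05, with the list median as a bar. The members' median is -0.63 and the stromal median -0.54 (-0.83 and -0.61 without TranspCtrl replicate 1), and the endothelial list lies wholly above 0.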

How the data were processed

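RNA of BM MSCs from 3 TranspCtrl and 3 TranspExer samples was sequenced on Illumina libraries. The authors deposited expected counts per gene, with 10.1% to 12.2% of values not whole, and a length per gene; the submitters' processing notes name mm10, and the aligner, counter and annotation are not given in the sources used here. Counts were rounded, genes were kept with filterByExpr, and groups were compared with edgeR 4.0.16 (TMM, quasi-likelihood test, Benjamini-Hochberg adjustment over 15190 genes, R 4.3.3), tested on simulated data. Calls used an adjusted p-value under 0.05, with or without a fold change of at least 2. Levels were TMM-scaled CPM, divided by exon length in GENCODE M21 for comparisons between genes. Alternatives were DESeq2 1.42.0, limma 3.58.1 voom with sample weights, other scalings and filters, a replicate block and each sample left out.

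The members and lists were chosen with earlier results of these data known. Named genes were all members, up to 5 genes per direction of each list past both thresholds, *Mfap2*, *Lox*, *Loxl1*, *Ltbp2*, *Ltbp4*, *Emilin1* and *Fbln7*, and the 5 genes most like *Eln*. Samples were grouped by their titles, and the count columns are 1 per sample. Total counts and the floor of 3 counts are given in the report.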

Additional observations from a re-analysis of the deposited data

How the results depend on the processing

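Of 116 fits of single members with a sample left out or another setting, 99 kept direction and side of the adjusted p threshold. *Fbln5*, near 0 with all samples, changed sign to -0.0091 with at least 10 counts in every sample, -0.060 with library size only, -0.16 with limma voom and -0.053 with upper-quartile scaling, and ranged from -0.18 to 0.14 with a sample left out, crossing 0 without TranspCtrl replicate 1 or TranspExer replicate 1. *Efemp2* passed with limma voom (adjusted p = 0.000173), library size only (adjusted p = 0.0465) and without TranspCtrl replicate 1, and *Efemp1* with library size only, upper-quartile scaling and without TranspCtrl replicate 3. Members lower by the adjusted p-value numbered 4 to 7, against 5. *Mfap5* was not tested with at least 10 counts in every sample, which leaves 2 members lower past both thresholds. Assembly partners past both thresholds numbered 2 higher and 3 lower, against 0 higher and 1 lower with a fold change of 2 tested in the model, and 1 to 2 were higher with a sample left out (1 without TranspExer replicate 3) and 2 to 3 lower (2 without TranspExer replicate 1).

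The replicate numbers were not treated as pairs, since the labels do not state a pairing. Same-numbered samples correlated at -0.00167 to 0.0416 in their deviations from the group means, and differently numbered ones at -0.0807 to 0.0736. These values cannot decide whether samples were paired, because deviations from a mean of 3 samples are not independent. With a replicate block, 5 members were lower by the adjusted p-value and 3 past both thresholds, as without it, and 519 genes were higher and 767 lower over the whole table, against 531 and 802. With at least 10 counts in every sample these were 380 and 554. The median log2 fold change of all genes was -0.10 with library size only and with upper-quartile scaling, against -0.02. At this depth *Mfap4* could not be compared and *Eln* rested on 11 to 32 counts.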
